A study of Mus musculus with 8 samples.

Results

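The integrated stress response was followed through 10 genes, Atf4, Atf5, Ddit3, Trib3, Asns, Chac1, Sesn2, Ppp1r15a, Fgf21 and Gdf15, in mouse liver. They were found by the gene symbol that each array probe carries through its transcript accession, and all 10 were present among the 21246 gene symbols named on the array. They are read by 22 of the 149782 distinct non-control probes, 12 from the maker's catalogue and 10 of custom design, each 60 bases long. Total RNA from livers of male mice was hybridised to 8 one-colour Agilent arrays, 4 from mice labelled normal or control and 4 from mice injected into the peritoneum with oxaliplatin once a week for 6 weeks. Oxaliplatin is a platinum drug against colorectal cancer that damages DNA, and the series uses it to model sinusoidal obstruction syndrome, in which the capillaries of the liver are damaged. Strain, age, dose, whether the controls received a vehicle, and the time between the last injection and tissue collection are not given in the sources used here. The replicates are stated to be biological, so the tests measure the spread between 4 livers per group.

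In the integrated stress response, kinases that sense unfolded protein, missing amino acids, double-stranded RNA or mitochondrial and heme stress phosphorylate the translation factor eIF2. General protein synthesis then slows while a few messages, Atf4 among them, are translated more, and the ATF4 protein switches on genes for amino acid supply, redox balance and, through CHOP (Ddit3), cell death. Liver also answers such stress by secreting the hormones FGF21 and GDF15, which act on metabolism and appetite. FGF21 is in addition a classical fasting hormone of the liver, induced by the lipid-sensing receptor PPARα.

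Every level below is the log2 signal of 1 probe relative to its array's 75th percentile, and levels are compared between arrays for the same probe but not between probes. Differences are oxaliplatin minus control, on the log2 scale, ± SE with n = 4 arrays per group, and group levels are means ± SD. A gene was represented by its brightest probe and was called at a limma adjusted p under 0.05 (Benjamini-Hochberg, over 13912 genes). All 10 genes could be tested. Between 27.2% and 40.9% of probes were well above background on an array, and the number of arrays limits the precision. All 4 control arrays lay on 1 slide and all 4 oxaliplatin arrays on another, so slide and treatment cannot be told apart. The p53-induced genes Cdkn1a, a cell cycle inhibitor gene, and Ccng1, both named after their values were seen, were lower on the arrays labelled oxaliplatin (-3.61 ± 0.66, adjusted p = 0.0117, and -1.58 ± 0.11, adjusted p = 0.000889). They do not stand for p53 targets as a set, which were not read here. Of p53-induced genes named below, Bbc3 and Btg2 were lower, while Sesn2 (0.21) and Gdf15 (-1.47) did not pass. All directions given here follow the labels, and an exchange of the group labels, which would reverse every one of them, cannot be checked from these files. The file headers give oxaliplatin replicates 1 and 2 a run name that differs from that of the other 6 arrays. The 10 markers of hepatocytes were all measured, and 5 of them were higher on the oxaliplatin arrays. Over all genes, 6.99% were called higher and 11.6% lower. The summed level of the hepatocyte markers ranged from 13.50 to 13.60 on control and from 13.70 to 13.86 on oxaliplatin arrays. Their median difference was 0.23, and 0.06 with 3 higher under quantile normalization. On the 6 arrays of 1 run name 1 hepatocyte marker passed. Of 6 erythroid markers tested, 4 were higher and 1 lower, with summed levels of 8.50 to 10.51 and 10.61 to 11.37, and of 6 pancreas acinar markers 2 were higher, with 5.78 to 6.16 and 6.08 to 7.24. Monocyte markers were higher for 3 of 10 (8.22 to 9.34 and 8.61 to 9.59), but their median difference was -0.04. Relative to each gene's control median, the median monocyte marker was 0.46, 0.72, -0.36 and -0.33 on oxaliplatin replicates 1 to 4. T and NK cell markers were higher for 2 of 9 (4.98 to 5.89 and 5.11 to 5.73, median difference 0.18). B and plasma cell markers were higher for 1 of 6 (3.61 to 4.64 and 3.88 to 5.05, median difference 1.09). None of 8 neutrophil markers passed (7.34 to 8.67 and 5.24 to 8.36, median difference -0.78). Of 10 markers each, sinusoidal endothelium and Kupffer cells had 1 higher and 1 lower and stellate cells 1 lower, and none of 6 cholangiocyte markers passed, with overlapping summed levels in all 4. The median difference of the Kupffer cell markers was 0.38, and -0.08 on the 6 arrays of 1 run name. Relative to each gene's control median, the median Kupffer cell marker was 0.69, 0.92, -0.05 and -0.08 on oxaliplatin replicates 1 to 4. The part of these shifts in the results below was not tested, and in bulk tissue fewer cells of a type and less RNA per cell cannot be told apart.

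Trib3 fell, and none of the other 9 genes passed the test. Trib3, a pseudokinase gene induced by ATF4 and CHOP that restrains both ATF4 and Akt signalling, was 2.35-fold lower on the oxaliplatin arrays. The difference of Fgf21 was the largest of the 10 at 2.93 ± 0.97, and it missed the threshold (adjusted p = 0.0676). Thus 1 of 10 genes was called, in the lower direction, where 18.6% of all tested genes were called, 11.6% lower and 6.99% higher. The 2 groups did not overlap for 1 of the 10 genes and for 27.7% of all genes. The differences were negative for 7 genes and positive for 3, with a median of -0.13 beside -0.09 over all genes. A difference of at least 2-fold in either direction was seen for 4 of the 10, Fgf21, Gdf15, Asns and Trib3, and for 6.38% of all genes. Of these 4 only Trib3 passed. The SD within groups of Fgf21, Gdf15 and Asns stood at percentiles 99.7, 98.9 and 99.6 of all tested genes.

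**Figure D1:**
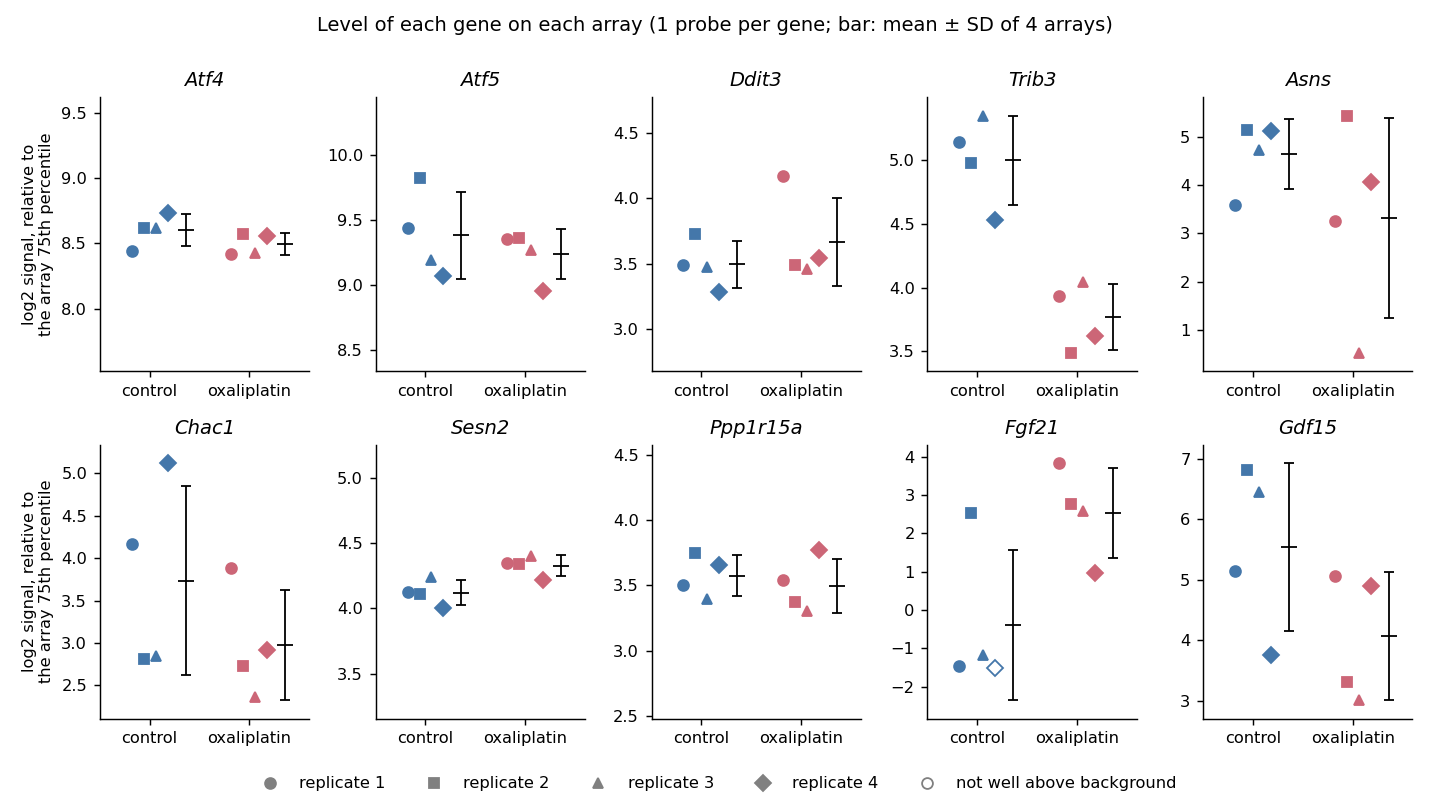
Level of the 10 genes on each array (y axis: log2 signal relative to the array's 75th percentile, with a range of its own in each panel; points: arrays, shaped by replicate; bars: mean ± SD of 4 arrays; open points: not well above background). Trib3 separates the groups, Fgf21 is high on all 4 oxaliplatin arrays and on control replicate 2, and Asns, Chac1 and Gdf15 scatter widely within groups.

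Trib3 is read by 3 probes that share runs of at most 7 bases, so they report on the transcript from separate places. The first 30 bases of each are printed to show that they are distinct, the brightest first, in lower case throughout since no letter is singled out.

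Trib3 catalogue probe, chr2:152163355-152163414 (mm9, minus strand): aaagaggcatttgactcaaggaatagtctg
Trib3 second catalogue probe, chr2:152164025-152164084 (mm9, minus strand): aatcctcttgcatccctggttgagagagga
Trib3 custom probe: gctgatgtttcctgcaggaagaaaccgttg

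On the brightest probe, the Trib3 level was 5.15, 4.98, 5.35 and 4.53 on control replicates 1 to 4. It was 3.93, 3.49, 4.04 and 3.62 on oxaliplatin replicates 1 to 4. Every oxaliplatin array lay below every control array. The group means were 5.0 ± 0.35 and 3.77 ± 0.26 (SD, n = 4), a difference of -1.23 ± 0.20 (adjusted p = 0.00805, 95% interval -1.69 to -0.77). The second catalogue probe, which also separated the groups, differed by -0.53 ± 0.11 (adjusted p = 0.0164 over the 54636 probes tested). Its levels were 1.76, 1.71, 1.91 and 1.62 on control and 1.31, 1.09, 1.17 and 1.31 on oxaliplatin arrays. The custom probe differed by -1.09 ± 0.32 (adjusted p = 0.0464) but was well above background on 3 control arrays and 1 oxaliplatin array. All 3 probes passed in the same direction, with differences from -0.53 to -1.23. The custom probe met the filter mainly through the control arrays. Its call and the size of its difference thus rest on dim oxaliplatin values and are not counted as separate support. On the 6 arrays of 1 run name, which keep oxaliplatin replicates 3 and 4, Trib3 differed by -1.17 ± 0.26 and no longer passed (adjusted p = 0.0625), at a share of called genes of 3.7%. With run name as a covariate it passed (adjusted p = 0.0433), as did 6.61% of all genes.

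The 5 genes outside the list whose levels followed Trib3 most closely were Zfp385b, 3010003L21Rik, Vat1, Gm11681 and Ltc4s. Likeness was the root mean square difference between centred log2 levels over the 8 arrays, over 13892 genes, with a median of 0.674. It was 0.218 for Zfp385b, 0.224 for 3010003L21Rik, 0.226 for both Vat1 and Gm11681, and 0.238 for Ltc4s, the gene of leukotriene C4 synthase. These 5 genes differed by -1.25 for Ltc4s, -1.14 for Zfp385b, -1.08 for Vat1, -0.98 for Gm11681 and -0.97 for 3010003L21Rik. They were chosen on the same 8 arrays, so differences near that of Trib3 follow from the choice and are not a separate result.

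Fgf21, the hepatokine gene that both ATF4 and PPARα are known to induce, had the widest spread of the 10. Its 3 probes are shown by their first 30 bases, because the brightest, custom probe and a catalogue probe overlap by 40 bases and so are not independent readings.

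Fgf21 custom probe: cctgaatctagggctgtttctttttgggtt
Fgf21 catalogue probe overlapping it, chr7:52869305-52869364 (mm9, minus strand): tttttgggtttccacttatttattacgggt
Fgf21 second catalogue probe, chr7:52869680-52870294 (mm9, minus strand): tgggtgtcaaagcctctaggtttctttgcc

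The genomic interval of the second catalogue probe spans 615 bases for a probe of 60. On the custom probe the Fgf21 level was -1.45, 2.52, -1.16 and -1.50 on control replicates 1 to 4. On oxaliplatin replicates 1 to 4 it was 3.83, 2.75, 2.57 and 0.97. Control replicate 2 stood with the oxaliplatin arrays, and the other 3 control arrays lay below all of them. The group means were -0.40 ± 1.95 and 2.53 ± 1.18 (SD, n = 4), a 7.63-fold difference (2.93 ± 0.97, adjusted p = 0.0676, unadjusted p = 0.0155, limma, 95% interval 0.72 to 5.15). Signals well above background were read by this probe on 3 of 4 control and all 4 oxaliplatin arrays. After normexp background correction the difference was 1.61 ± 0.57 (adjusted p = 0.0664, limma), so its size depended on how background was handled.

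Of all probes fitted together, the overlapping catalogue probe of Fgf21 passed at 3.0 ± 0.85 (adjusted p = 0.0415), where 7.42% of probes were called higher and 11% lower. Its levels were -2.41, 1.49, -2.06 and -1.88 on control and 2.86, 1.84, 1.82 and 0.62 on oxaliplatin arrays, and the values of control replicates 1, 3 and 4 were not well above background. This probe met the filter through the oxaliplatin arrays, so the size of its difference rests on dim control values. The second catalogue probe differed by 2.44 ± 0.80 (adjusted p = 0.0636), with levels of -2.56, -0.21, -4.00 and -3.15 against 1.29, -0.26, -0.06 and -1.14, of which 1 control and 3 oxaliplatin values were well above background. This second probe too met the filter mainly through the oxaliplatin arrays, and its size rests on dim control values. All 3 probes put control replicate 2 highest among the controls. Leaving out control replicate 2 gave an Fgf21 difference of 3.90 with an adjusted p of 0.0103, and the gene was then called higher, as were 6.99% of all genes. Since that array held the highest control level, leaving it out had to raise the difference, and the call is not separate support. Leaving out any other single array gave no call (adjusted p from 0.0685 to 0.155, limma). On the arrays of 1 run name the difference was 2.17 ± 1.24 (adjusted p = 0.307).

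**Figure D2:**
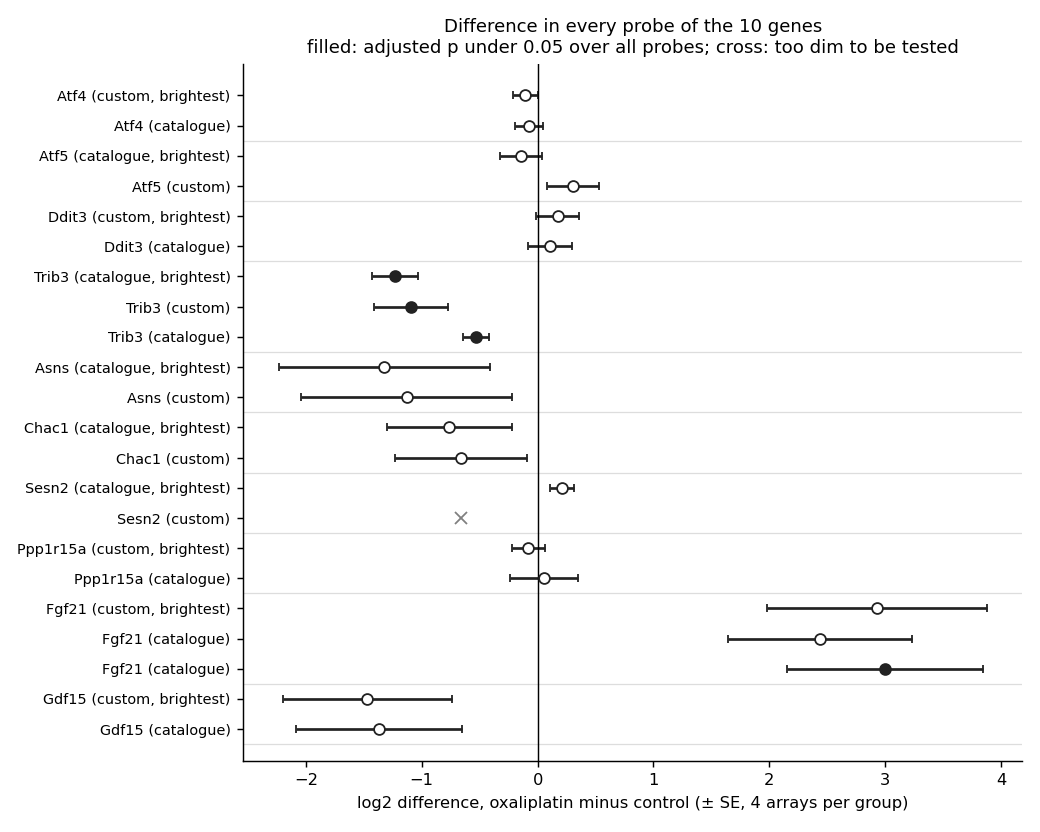
Difference between oxaliplatin and control for all 22 probes of the 10 genes (x axis: log2 difference; bars: ± SE of the limma fit, 4 arrays per group; filled: adjusted p under 0.05 over all probes; cross: the Sesn2 probe that was too dim to be tested). The 3 Trib3 probes are filled on the lower side and 1 Fgf21 probe on the higher side, and the probes of Asns, Chac1 and Gdf15 repeat each other's wide errors.

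The genes that respond to PPARα and fasting were read beside Fgf21 from a list of 15, in which only Pck1, the gene of the gluconeogenic enzyme PEPCK, passed (0.34 ± 0.09, adjusted p = 0.0415). The list's median difference was 0.76, beside -0.09 for all genes. Among those that did not pass, Cyp4a14, a fatty acid hydroxylase gene, differed by -0.24 ± 0.62 (adjusted p = 0.817). Pck1 itself passed in 6 of 21 alternatives, and no gene of the list passed under quantile normalization. Of the 15 genes, 14 had their highest control level on control replicate 2. That array was also the highest control for 9 of 14 immediate early genes and 6 of the 10 genes. It was so for 7 of 12 hormone receptor and regulator genes and 0 of 17 ATF6 and XBP1 targets, and the share over all genes was not counted. The median of the list, each gene relative to its control median, was 0.01, 0.94, -0.03 and -0.35 on control replicates 1 to 4. It was 0.83, 0.89, 1.12 and 0.48 on oxaliplatin replicates 1 to 4. Control replicate 2 thus lay within the range of the oxaliplatin arrays for this list, as it did for Fgf21.

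Without control replicate 2, 7 of the 15 genes passed, all higher, beside 6.99% of all genes, and the median was 1.01. Since that array held the highest control level of 14 of the 15, leaving it out had to lower their control means. Among them were Cyp4a10, Acot1, Ehhadh, Vnn1, Plin2 and G6pc, genes of fatty acid oxidation, lipid droplets and glucose output, and Pck1 did not pass there. This list was looked at array by array after the Fgf21 values had been seen, and what sets control replicate 2 apart was not tested. Ppara, the receptor gene, differed by 1.01 ± 0.34 (adjusted p = 0.0725) with groups that did not overlap.

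**Figure D3:**
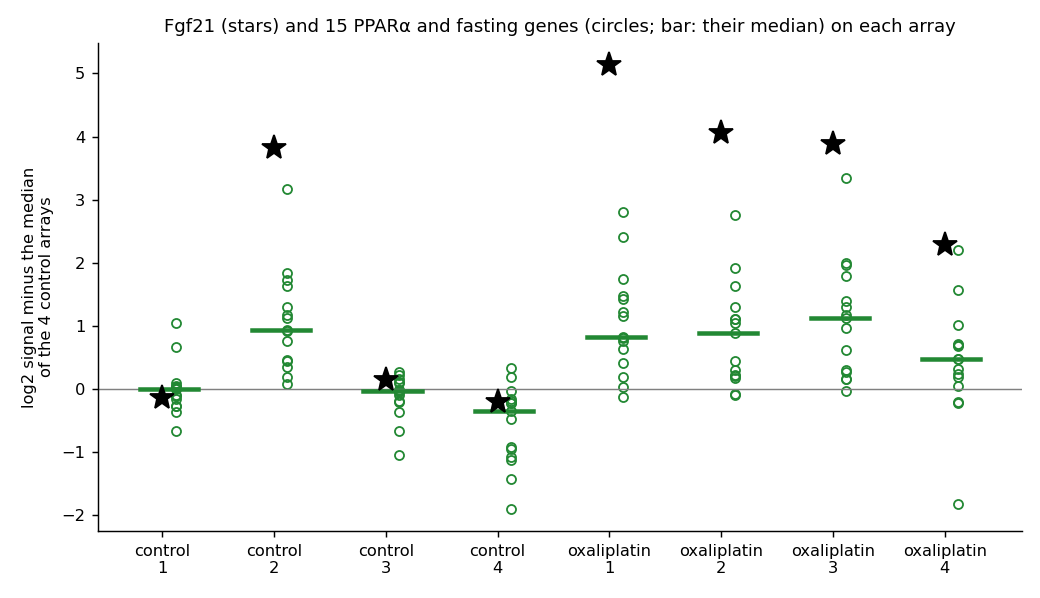
Fgf21 (stars) and the 15 PPARα and fasting genes (circles, with their median as a bar) on each array (y axis: log2 signal minus the gene's median over the 4 control arrays). The list's median is 0.94 on control replicate 2 and 0.48 to 1.12 on the oxaliplatin arrays, against -0.35 to 0.01 on the other 3 control arrays.

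The other stress hormone gene, Gdf15, encodes a secreted cytokine that acts on the hindbrain through GFRAL and is induced by p53 as well as by ATF4 and CHOP. Its level was 5.14, 6.82, 6.45 and 3.76 on control replicates 1 to 4. On oxaliplatin replicates 1 to 4 it was 5.06, 3.31, 3.01 and 4.89. On this brightest, custom probe the highest 3 arrays were controls, but control replicate 4 was lower than 2 of the oxaliplatin arrays, so the groups overlapped. The difference of -1.47 ± 0.74 did not pass (adjusted p = 0.191), and its 95% interval ran from -3.17 to 0.23. The catalogue probe of Gdf15 (mm9 chromosome 8, 73153471 to 73153530) gave -1.37 ± 0.71 (adjusted p = 0.203 over probes). There control replicate 1 (4.16) lay below oxaliplatin replicates 1 (4.25) and 4 (4.22). Fgf21 and Gdf15 thus had differences of opposite sign, and neither gene passed.

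Of the genes for receptors and regulators of the 2 hormones, 12 of 14 could be tested. The receptor gene Gfral and its partner Ret were too dim on these liver arrays to be tested. Trp53 rose by 0.39 ± 0.10 (adjusted p = 0.0323) and was the only gene of the list to pass, which it did in 11 of 21 alternatives. Creb3l3, a liver transcription factor gene that acts with PPARα on Fgf21, differed by 0.48 ± 0.17 (adjusted p = 0.0891). Klb, the FGF21 coreceptor gene, named outside the rule for its role, differed by -0.32 ± 0.14 (adjusted p = 0.152). The list's median was 0.25.

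Asns and Chac1 are effector genes of ATF4 in amino acid and glutathione metabolism. Asns makes asparagine, and its level was 3.60, 5.14, 4.74 and 5.12 on control and 3.27, 5.44, 0.52 and 4.07 on oxaliplatin replicates 1 to 4. Oxaliplatin replicate 3 was far below the rest and oxaliplatin replicate 2 was the highest of all 8 arrays. The difference was -1.32 ± 0.93 (adjusted p = 0.340, 95% interval -3.46 to 0.81), and it was -0.39 without oxaliplatin replicate 3 and -2.35 ± 0.97 on the arrays of 1 run name (adjusted p = 0.193). The other Asns probe, which shares 37 bases with the first, gave -1.13 ± 0.91.

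Chac1 encodes an enzyme that degrades glutathione, and its level was 4.16, 2.82, 2.84 and 5.12 on control and 3.88, 2.73, 2.37 and 2.92 on oxaliplatin replicates 1 to 4. Control replicates 1 and 4 and oxaliplatin replicate 1 were the high arrays, and the groups overlapped. The difference was -0.76 ± 0.55 (adjusted p = 0.352, 95% interval -2.02 to 0.50). Without control replicate 4 it was -0.30. The custom probe of Chac1 shares 43 bases with the first and differed by -0.66 ± 0.57.

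The promoters of the 10 genes were searched for the C/EBP-ATF core TGATGNAA, the letters through which ATF4 dimers are known to bind, on both strands in the 250 bases before each annotated start. RefSeq windows of build GRCm38.p6 matched all 10 genes, with 12 starts in all. The core was found in 3 of the 10, Asns, Chac1 and Fgf21, and in 3.91% of 27025 genes with a promoter window. The 10 genes were picked as members of this response, so their share beside that of all genes is not a test. These 3 and Gdf15, which had no match, had the widest spread within groups, and a link between match and spread was not tested. The windows are printed 5′ to 3′ on the strand of the gene, with the core in capitals, as the reverse TTNCATCA in Chac1 and Fgf21.

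Asns, chr6:7693210-7693262 (GRCm38.p6, minus strand): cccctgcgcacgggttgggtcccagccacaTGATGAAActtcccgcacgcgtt
Chac1, chr2:119351019-119351086 (GRCm38.p6, plus strand): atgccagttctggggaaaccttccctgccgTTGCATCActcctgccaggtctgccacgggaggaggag
Fgf21, chr7:45615592-45615659 (GRCm38.p6, minus strand): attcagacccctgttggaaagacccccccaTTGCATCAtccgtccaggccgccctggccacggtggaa

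Relative to the annotated start, the core lies at -23 to -16 in Asns, -193 to -186 in Chac1 and -139 to -132 in Fgf21. No match in the other 7 genes, Trib3 included, says only that these letters are not in these windows. The ER stress element, searched on both strands, was in none of the 12 windows and in 0.113% of the 32851 promoter windows.

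None of the 3 transcription factor genes at the head of the response passed. Atf4, the central activator, which is controlled mainly in translation, had levels of 8.44, 8.62, 8.62 and 8.73 on control and 8.42, 8.57, 8.43 and 8.56 on oxaliplatin arrays. The groups overlapped and all 8 arrays lay within 1.24-fold. The difference was -0.11 ± 0.10 (adjusted p = 0.458), with a 95% interval of -0.33 to 0.12. It was -0.38 and passed after normexp background correction (adjusted p = 0.0185), where 18.2% of all genes were called lower, and its sign turned, to 0.00205, when arrays were scaled over detected probes.

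Atf5, a relative of Atf4 that is translated in the same way and acts in mitochondrial stress, ranged from 9.07 to 9.82 on control and from 8.96 to 9.36 on oxaliplatin arrays. It differed by -0.15 ± 0.18 (adjusted p = 0.592, 95% interval -0.56 to 0.26). Its custom probe differed by 0.30 ± 0.23, so the 2 probes had opposite signs and neither passed. Ddit3, the gene of the pro-death factor CHOP, was 3.49, 3.73, 3.48 and 3.28 on control and 4.17, 3.49, 3.46 and 3.54 on oxaliplatin arrays. Oxaliplatin replicate 1 was above all other arrays and the remaining 3 were within the control range. The difference was 0.17 ± 0.18 (adjusted p = 0.525, 95% interval -0.24 to 0.58) and it was -0.04 after normexp.

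Among the feedback genes, Ppp1r15a (GADD34) encodes the subunit that directs a phosphatase to eIF2 and so ends the response. It ranged from 3.40 to 3.75 on control and from 3.30 to 3.77 on oxaliplatin arrays, with a difference of -0.08 ± 0.13 (adjusted p = 0.704, 95% interval -0.39 to 0.23). That sign turned, to between 0.0099 and 0.030, under 3 other scalings or sources of values. Sesn2, a stress gene induced by ATF4 and p53 that restrains mTORC1, was 4.13, 4.11, 4.24 and 4.00 on control and 4.35, 4.34, 4.40 and 4.22 on oxaliplatin arrays. The groups overlapped only in that oxaliplatin replicate 4 was just under control replicate 3. Sesn2 differed by 0.21 ± 0.09 (adjusted p = 0.142), and by 0.32 with a call when arrays were scaled over detected probes (adjusted p = 0.0432), quantile normalized (0.0451) or taken from the authors' series matrix (0.0446). Under these 3 settings 10.3%, 8.05% and 7.9% of all genes were called higher. Scaling over detected probes also moved the median difference of all genes from -0.09 to 0.02. The custom probe of Sesn2 was well above background on 2 control arrays and no oxaliplatin array and was not tested.

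**Figure D4:**
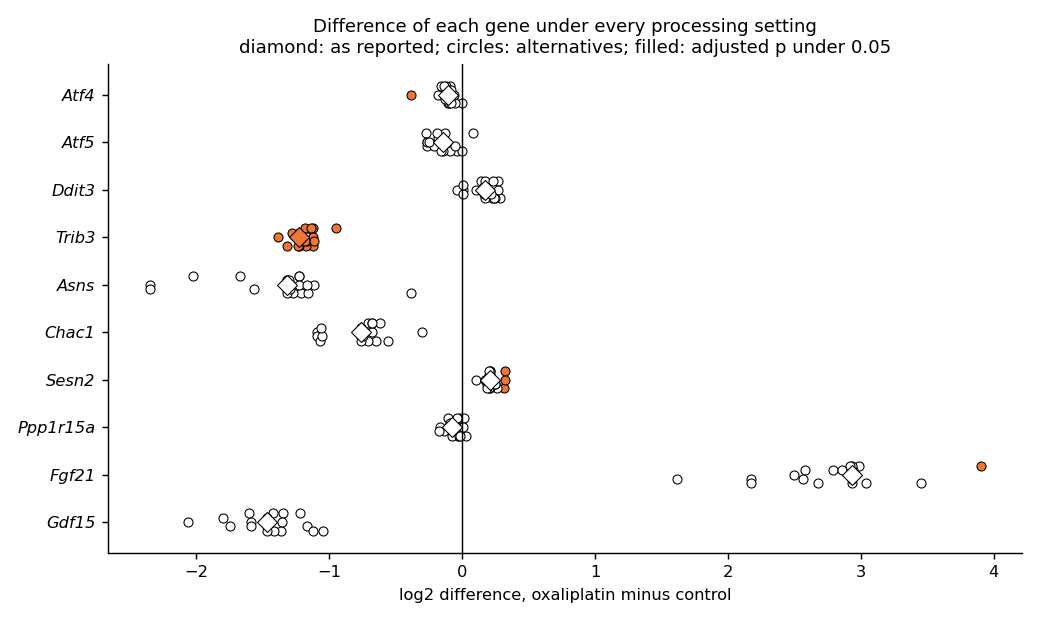
Difference of each of the 10 genes as reported (diamonds) and under the alternative processing settings (circles; x axis: log2 difference, oxaliplatin minus control; filled: adjusted p under 0.05). Trib3 ranges from -1.39 to -0.95 and is filled in 20 of 21 alternatives, Sesn2 in 3, and Atf4 and Fgf21 in 1 each.

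The 10 genes differed widely in how far livers of 1 group lay apart. The SD within groups, pooled over both, was 1.61 for Fgf21, 1.55 for Asns, 1.24 for Gdf15 and 0.91 for Chac1, against a median of 0.217 over all genes. Among all tested genes these spreads stood at percentiles 99.7, 99.6, 98.9 and 97.1. Over all 8 arrays Asns covered a 30.3-fold range, Gdf15 14-fold and Chac1 6.74-fold, and Fgf21 covered 38.8-fold over the 7 arrays on which it was well above background. Trib3 was more even within groups, with an SD of 0.31 and a percentile of 68.9, and Ddit3 and Atf5 stood at 63.1 and 63.0. Atf4 (SD 0.10, percentile 8.82) and Sesn2 (0.088, percentile 4.77) were among the most even genes on the array.

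The highest arrays were not the same from gene to gene. Control replicate 2 was above the gene's own median for 8 of the 10 genes and oxaliplatin replicate 1 for 7. Oxaliplatin replicate 3 was above it for 2 and held the lowest level of 4 genes. Control replicate 4 held the highest level of 2 genes, Atf4 and Chac1, and the lowest of 3, Ddit3, Fgf21 and Sesn2.

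The genes around the 10 were taken from lists of the pathway, of which 120 genes could be tested, 4 of them higher (3.33%) and 15 lower (12.5%), beside 6.99% and 11.6% of all genes. These 19 calls held in 5 to 21 of 21 alternatives each. Of 17 genes for the eIF2 kinases and the eIF2 switch, 3 fell and 0 rose, and the median was -0.26. These were Ppp1cc, a catalytic subunit of the eIF2 phosphatase (-0.39 ± 0.09, adjusted p = 0.0278), and the eIF2B exchange factor genes Eif2b5 (-0.33 ± 0.08, adjusted p = 0.0335) and Eif2b1 (-0.30 ± 0.09, adjusted p = 0.0498). None of the 3 passed when arrays were scaled over detected probes or quantile normalized. No gene of this list passed without control replicate 3 or without oxaliplatin replicate 2, 3 or 4, and 1 passed without control replicate 2 or 4 or oxaliplatin replicate 1.

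Of 18 ATF4 targets of amino acid supply, 14 could be tested, 1 rose and 2 fell, with a median of -0.14. Aldh18a1, for proline synthesis, rose by 0.87 ± 0.17 (adjusted p = 0.0141). Slc3a2, the heavy chain of amino acid exchangers, fell by 0.40 ± 0.10 (adjusted p = 0.0271), and Gpt2, a mitochondrial alanine transaminase, fell by 0.77 ± 0.19 (adjusted p = 0.0287). None of the 14 passed as lower without control replicate 2 or oxaliplatin replicate 2, 3 or 4, and 1 did without control replicate 3 or oxaliplatin replicate 1. Slc7a11, Mthfd2, Aldh1l2 and Pycr1 were not tested.

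Of 16 other ATF4 and CHOP targets tested, 4 fell and 1 rose, beside 11.6% and 6.99% of all genes, with a median of -0.38. The lower count was 2 without control replicate 2 or 3 or oxaliplatin replicate 2, 3 or 4. Bbc3, the pro-apoptotic PUMA gene that p53 also induces, fell by 0.99 ± 0.16 (adjusted p = 0.00850) and passed in all 21 alternatives, the arrays of 1 run name included (adjusted p = 0.0267). Vldlr, a lipoprotein receptor gene, fell by 1.79 ± 0.32 (adjusted p = 0.0112) and passed in 20 of 21. The angiogenic growth factor gene Vegfa fell by 0.53 ± 0.14 (adjusted p = 0.0374) and the translation repressor gene Eif4ebp1 by 0.47 ± 0.13 (adjusted p = 0.0391). Cebpg, a partner of ATF4, was higher by 0.63 ± 0.16 (adjusted p = 0.0339), while its other 3 probes differed by 0.10, -0.03 and -0.62. Ddit4, an mTORC1 inhibitor gene named after its value was seen, differed by -2.23 ± 0.69 (adjusted p = 0.0572).

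Of 17 ATF6 and XBP1 targets, which mark the other branches of the ER stress response, Atf6 alone passed and the median was 0.04. The chaperone gene Hsp90b1 differed by -0.07 ± 0.11 (adjusted p = 0.670) and Calr by 0.15 ± 0.10 (adjusted p = 0.325). Atf6 was lower by 0.62 ± 0.15 on its brightest probe (-0.62, adjusted p = 0.0271) and higher by 2.10 ± 0.39 on another (adjusted p = 0.0117 over probes), so its direction depended on the probe. Of 10 genes of mitochondrial stress sensing, Yme1l1, an inner membrane protease gene, passed and was lower (-0.47 ± 0.13, adjusted p = 0.0388), with a list median of -0.09.

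Of 9 relatives of the 10 genes, Trib2, a pseudokinase gene of the family of Trib3, fell by 0.55 ± 0.10 (adjusted p = 0.0112) and Cebpg was higher. Immediate early genes, which rise within minutes of tissue handling or growth signals, were read as a list of 14. In it 3 fell and 0 rose, beside 11.6% and 6.99% of all genes, and the median was -0.58. Relative to each gene's control median, the list's median was -0.14, 0.31, 0.10 and -0.12 on control replicates 1 to 4. It was -0.43, -0.52, -1.24 and -0.19 on oxaliplatin replicates 1 to 4. Btg2, a growth arrest gene that is also a p53 target, fell by 1.71 ± 0.39 (adjusted p = 0.0225), the growth regulator gene Myc by 1.19 ± 0.26 (adjusted p = 0.0204) and Ier3 by 1.06 ± 0.28 (adjusted p = 0.0351). No immediate early gene passed without control replicate 3 or oxaliplatin replicate 4, and 1 passed without oxaliplatin replicate 3. Within 1 run name Btg2 passed (adjusted p = 0.0425) and Myc did not (adjusted p = 0.105). Of the 19 calls in these lists, Bbc3 and Btg2 were the ones that passed there.

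**Figure D5:**
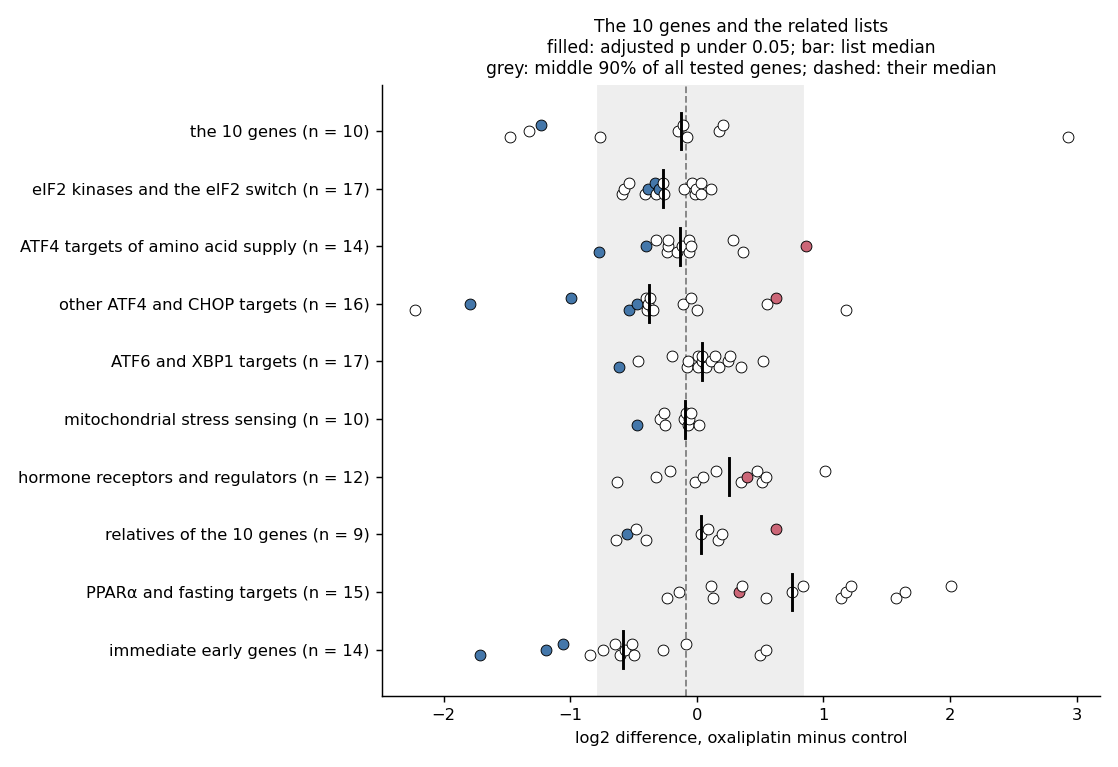
Difference of the 10 genes and of each related list (x axis: log2 difference, oxaliplatin minus control; points: genes, filled where the adjusted p was under 0.05; black bars: list medians; grey band: middle 90% of all tested genes; dashed line: their median). The medians run from -0.58 for the immediate early genes to 0.76 for the PPARα and fasting targets, and the 10 genes centre on -0.13 with Fgf21 far to the right.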

How the data were processed

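Liver RNA of 4 control and 4 oxaliplatin mice was read in 1 colour, 1 array per mouse. Per the file headers, Feature Extraction 12.0.3.1 made the deposited processed signal, a background-subtracted intensity, and flags for spots above background, saturated or outlying, while the submitters' processing notes list limma and version 10.7 of Agilent Feature Extraction. The deposited series matrix holds log2 values whose normalization and centring between arrays the sources used here do not state; its column medians lie between 5.76 and 5.83, and its correlation with the log2 processed signal of the same array was 0.9964 to 0.9998 across probes, which are not independent replicates.

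The log2 processed signal was taken relative to each array's 75th percentile over non-control probes, outlier spots were left out (none on probes of the 10 genes), and probes well above background on at least 4 of 8 arrays were kept, 54636 in all. No spot was saturated. Of 48257 probes with a curated accession, 47985 were named through the GRCm38.p6 gene table. The groups were compared with limma 3.58.1 (R 4.3.3, lmFit and eBayes, 6 residual and 2.37 prior degrees of freedom), with Python 3.11.15 for the rest. On simulated data with 200 of 13912 genes changed, the test found 64% of those changed by 1 (log2) and 90% of those changed by 2, and 9 of its 163 calls (5.52%) were wrong. The simulation had independent noise, no slide or run effect, and far fewer changed genes than the 2590 called here. Its rates therefore do not carry over to these data.

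The 10 genes and all lists were chosen with earlier results of these data known. Named are all 10 genes, in each list those that passed, and up to 2 of the highest level that did not, with exceptions marked in the text. A gene that the rule picks is not reported here. Replicate numbers do not pair the groups: deviations from group means of same-numbered arrays correlated at -0.32, -0.08, -0.09 and -0.23. Alternatives covered background correction, scaling, the series matrix, the filter, outlier spots, the variance model, probe choice, each array left out, run name and a replicate block.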

Additional observations from a re-analysis of the deposited data

Results flagged for a closer look

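For 2 of the 20 groups of 4 arrays checked over the 10 genes, 1 array stood far from the other 3, and chance alone marks about 1 in 20 groups. The Fgf21 level on control replicate 2 was 2.52, and its distance to the next control array made up 0.914 of the whole range of the controls. The Ddit3 level on oxaliplatin replicate 1 was 4.17, with a distance of 0.889 of the range of the oxaliplatin arrays.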

How the results depend on the processing

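Trib3 kept its call in 20 of 21 alternatives and lost it on the 6 arrays of the first run name, and Gdf15, Asns and Chac1 kept their sign and passed in none. Signs reversed for Atf4 (0.00205) and Ppp1r15a (0.030) with scaling over detected probes, Ppp1r15a also under quantile normalization (0.017) and in the series matrix (0.0099), Ddit3 after normexp (-0.035), and Atf5 with the mean of all probes (0.079) and without control replicate 2 (0.00124, with single arrays left out -0.25 to 0.00124). Of the 10 genes 1 was called higher with scaling over detected probes, quantile normalization or the series matrix, 0 to 1 with single arrays left out, and 0 otherwise. The count called lower was 2 after normexp, 0 on the first run name and 1 otherwise. Fitted per probe, 1 probe was higher and 3 lower, against 0 and 1 with 1 probe per gene. Over all genes 973 were higher and 1617 lower. These counts were 680 and 2533 after normexp, 1431 and 935 with scaling over detected probes, 1120 and 1122 under quantile normalization, 1125 and 1232 with median centring, 1073 and 1102 in the series matrix, 2779 and 1332 without a filter, 255 and 260 on the first run name, and 451 and 469 with run name as a covariate. Leaving out single arrays gave 457 to 972 higher and 558 to 1509 lower. In the pathway lists, 4 higher and 15 lower became 8 and 7 with scaling over detected probes, 0 and 3 on the first run name, and 0 and 4 with the run covariate. The lower count was 9 under quantile normalization and in the series matrix, and the higher count 7 with signal required on all 8 arrays. With single arrays left out the lists had 1 higher (without oxaliplatin replicate 3) to 12 higher (without control replicate 2) and 3 lower (without oxaliplatin replicate 4) to 16 lower (without control replicate 1). With the replicate number as a block, which the numbers do not support, 266 genes were higher and 263 lower, the lists had 0 higher and 2 lower, and Trib3 passed at an adjusted p of 0.0321. Fgf21 could not be tested where signal on all 8 arrays was required. The causes of these shifts were not tested. Dim probes, such as those of Fgf21 on control arrays, limit what low levels show.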
